A study of Arabidopsis thaliana with 12 samples.

Results

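The transcripts described here are those of the chloroplast genome of Arabidopsis thaliana, as measured on Affymetrix arrays of whole seedlings. They were taken as all probe sets that the array files pair with a single locus whose identifier starts with ATCG. The rule found 72 probe sets for 72 different loci, out of 22746 probe sets other than array controls. Another 8 probe sets, paired with several ATCG loci at once, were left out by the rule. The seedlings were of the CCA1-34 line, which overexpresses the clock protein CCA1 and is arrhythmic, and of the wild type Columbia (Col). Both lines spent 4 short days (8 h of light and 16 h of darkness) and were then moved to repeated pulses of 160 min of light and 320 min of darkness. Samples were taken 120 min into a dark period at 1240 min after dawn (late) and at 280 min after dawn (early), on 3 successive days, when seedlings were 5, 6 and 7 days old. The 4 groups, CCA1-34 late, CCA1-34 early, Col late and Col early, thus have 3 arrays each, 1 per age. Per the series' description, CCA1-34 seedlings grow at both times, whereas Col seedlings do not grow at the late time and do at the early one. Every dish held about 100 seedlings on medium with sucrose. The labels do not say that the arrays came from separately sown cultures. The p-values of the group comparisons rest on the spread of the 3 arrays within each group, pooled over the 4 groups. That spread includes the differences between ages and sampling days, and the rest of it may be technical. Those of the age slopes rest on the spread left around the fitted slopes. In all fits limma also draws each probe set's spread toward a value taken from all probe sets.

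The chloroplast genome is a small circular DNA, present in many copies per plastid, that encodes core subunits of the 2 photosystems, of the cytochrome b6f complex, of ATP synthase and of an NAD(P)H dehydrogenase-like complex. It also encodes the large subunit of Rubisco, the plastid RNA polymerase, and part of the plastid's ribosome and its RNAs. Many of its genes are transcribed together from shared promoters as long precursor RNAs that are then cut and edited, and RNA stability has a large part in setting transcript levels. It is read by a polymerase of bacterial type, whose core the plastid encodes and whose promoter-recognising sigma factors come from the nucleus, and by nuclear-encoded polymerases of phage type. The RefSeq annotation of TAIR10.1 lists 129 plastid genes, of which 85 encode proteins, 37 tRNAs and 7 ribosomal RNAs. The proteins carry 78 distinct symbols, among them 15 of photosystem II (psb), 5 of photosystem I (psa), 11 of the NAD(P)H dehydrogenase-like complex (ndh) and 4 of the RNA polymerase (rpo). Neither the array files nor that annotation pairs an ATCG identifier with a symbol: 0 of the 72 loci matched. The transcripts are therefore given by locus identifier, with no gene name or role, and the order of locus numbers is used only as an order of identifiers.

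The overexpressed gene set the lines apart as labelled. CCA1 had log2 signals of 8.46 to 10.2 on the 6 CCA1-34 arrays and of 2.47 to 6.37 on the 6 Col arrays, with the highest Col value on the 7-day early array. The array medians were close, at 4.03 to 4.13 on the log2 scale. Markers of both shoot and root cells were present in the seedlings: 29 of 29 measured nuclear genes for photosynthesis subunits and 11 of 14 root cell markers had mean signals above the median probe set. Because whole seedlings were pooled, fewer cells of a type and less RNA per cell cannot be told apart.

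Chloroplast transcripts were among the brightest signals on the arrays. Their mean signals over the 12 arrays had a median of 8.98 on the log2 scale, on which 1 unit is a doubling (quartiles 7.28 and 9.94), against 4.08 over all probe sets and 2.39 for the 66 probe sets of the mitochondrial genome. Of the 72, 71 lay above the median of all probe sets, 63 above the third quartile (5.91) and 43 among the brightest 5% (above 8.28). Probe sets differ in how well they bind their target, so these are array signals and not amounts of one RNA against another. How the RNA was primed and labelled can also affect the level, spread and joint movement of such signals, and was not examined. ATCG00480 had the highest mean, 12.37, and ran between 11.88 and 12.95 over the 12 arrays. ATCG00470, the locus measured next to it, followed at 12.26. ATCG01010 had the lowest mean, 2.74, and was the only chloroplast probe set below the median of all probe sets. ATCG00600 came next at 4.33, with values of 3.60 to 6.10.

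The same transcripts varied widely between arrays of one group. The SD within groups had a median of 0.546 log2 units over the 72 probe sets, against 0.201 over all probe sets and 0.253 over the probe sets at or above the median signal. It was above the median of all probe sets for 69 of the 72, and 93.1% of all probe sets had a smaller SD than the chloroplast median. The difference between a locus' highest and lowest array exceeded 1 log2 unit for 62 of the 72 and reached 3.47 for ATCG00500. That locus had 7.15, 6.78 and 8.21 in CCA1-34 late seedlings of 5, 6 and 7 days, and 6.75, 7.07 and 5.37 in CCA1-34 early. It had 7.49, 6.42 and 8.84 in Col late and 7.50, 6.92 and 7.50 in Col early. The 7-day arrays of Col late and CCA1-34 early thus held its highest and lowest values. The bright ATCG00720 was the steadiest, with a range of 0.483 around a mean of 11.94.

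**Figure D1:**
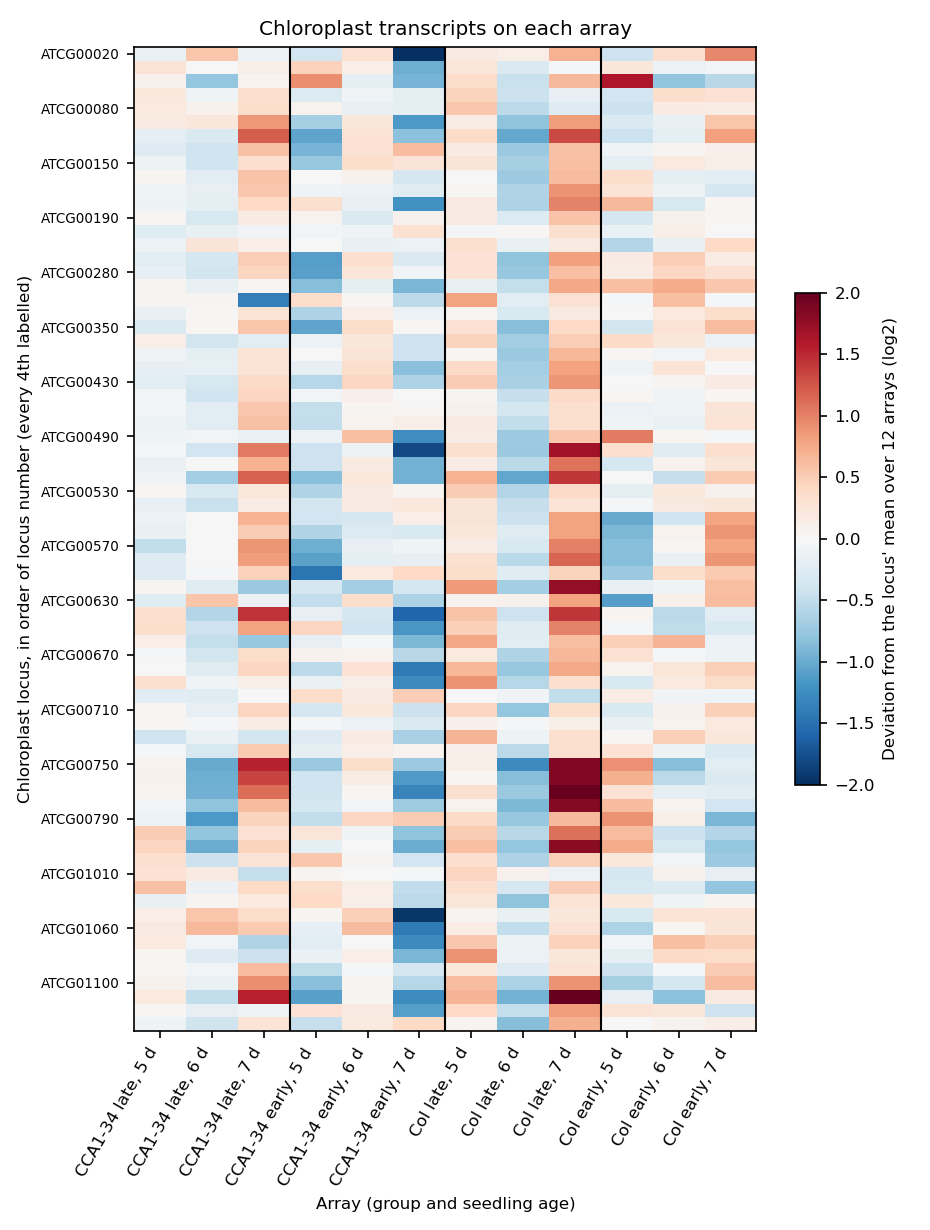
Deviation of each of the 72 chloroplast probe sets (down the page, in order of locus number) from its own mean over the 12 arrays, in log2 units, for each array (across, by group and age). Red is above and blue below the mean, with colours limited at 2 either way, which 2 of 864 values exceeded; the 7-day Col late array is red over most loci and the 6-day Col late and 7-day CCA1-34 early arrays are blue over most.

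Most loci moved up or down together on many of the arrays, though not on all. Each locus was expressed as the deviation from its own mean over the 12 arrays, and the deviations were averaged over the 72 loci. This mean was 0.00, -0.23 and 0.37 log2 units in CCA1-34 late seedlings of 5, 6 and 7 days. In CCA1-34 early seedlings it was -0.30, 0.09 and -0.55. In Col late seedlings it was 0.32, -0.51 and 0.70, and in Col early seedlings it was -0.02, 0.01 and 0.13. Of the 72 loci, 68 and 67 were above their own mean on the 5-day and 7-day Col late arrays, but only 4 on the 6-day array of the same group. The split was more even on the 5-day CCA1-34 late array, with 35 above, and on the Col early arrays, with 32, 39 and 47 at 5, 6 and 7 days. The mean over the loci had an SD of 0.62 in Col late and of 0.08 in Col early (n = 3 each). Single loci still differed widely between the Col early arrays, in both directions: ATCG00570 had 9.41, 10.28 and 11.05 there at 5, 6 and 7 days, and ATCG00790 had 10.37, 9.59 and 8.56. Group means were 0.05 ± 0.30 in CCA1-34 late, -0.25 ± 0.32 in CCA1-34 early, 0.17 ± 0.62 in Col late and 0.04 ± 0.08 in Col early (SD, n = 3 each). All 4 groups overlapped. By age, the 4 arrays averaged -0.00 at 5 days, -0.16 at 6 days and 0.16 at 7 days, again with overlapping ranges.

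Some other signals moved with this mean across the 12 arrays, which share the groups and ages. Of the measures compared, the mean deviation of 10 nuclear factors of plastid RNA stability and processing followed it most closely, with r = 0.85 (Spearman rho = 0.87) and 0.70 without the 6-day and 7-day Col late arrays. It was -0.45 and 0.53 on those 2 arrays. The 6 nuclear sigma factors had r = 0.71 (rho = 0.76) and 0.68 without 2 arrays. The array's control probe set for cytosolic 25S ribosomal RNA, with log2 signals between 4.51 and 10.2, was highest on the 7-day Col late array and lowest on the 7-day CCA1-34 early array, as was the chloroplast mean. Its correlation with the chloroplast mean was r = 0.68 (rho = 0.50) and 0.29 without those 2 arrays. The mean deviation of the 14 root cell markers ran against the chloroplast mean, with r = -0.58 (rho = -0.57) and -0.50 without the 2 arrays farthest from their median. It was 0.62 and -0.65 on the 6-day and 7-day Col late arrays, where the chloroplast mean was -0.51 and 0.70. On the 7-day CCA1-34 early array, where the chloroplast mean was lowest at -0.55, the root markers were also low, at -0.22. The 29 nuclear photosynthesis genes had r = 0.63 (rho = 0.56), and 0.23 without the 6-day and 7-day Col late arrays. The difference between the 3′ and 5′ probe sets of the GAPDH control had r = 0.61 (rho = 0.54) and 0.22 without 2 arrays. That of the actin control had r = 0.24, the 66 mitochondrial probe sets r = -0.07, and 8 genes known to rise in darkness and sugar starvation r = 0.08. The 13 measured genes for proteins that associate with the plastid-encoded polymerase had r = 0.40, and those for the 3 polymerases of phage type r = -0.01. These are 11 relations given as descriptions, and the part of ribosomal RNA, root share, RNA quality or the nuclear factors in the chloroplast signals was not tested.

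**Figure D2:**
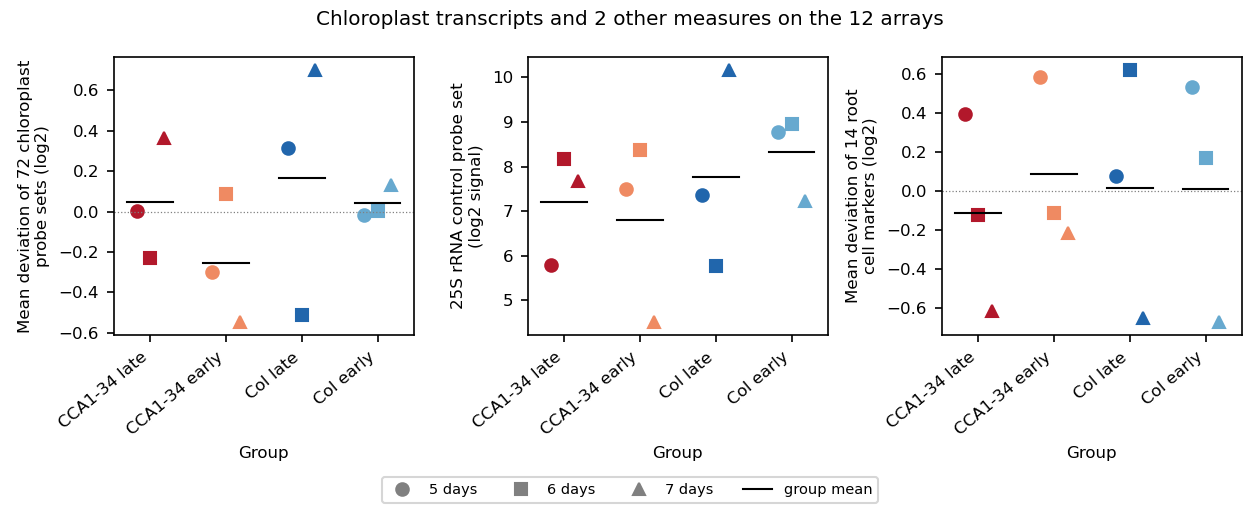
For each array, the mean deviation of the 72 chloroplast probe sets (left, log2 units), the log2 signal of the 25S ribosomal RNA control (middle) and the mean deviation of 14 root cell markers (right). Symbols give the age, horizontal lines the group means (n = 3). The chloroplast mean spans -0.51 to 0.70 within Col late, and the root markers of the same arrays run the other way. On the 7-day CCA1-34 early array both are low (-0.55 for the chloroplast mean and -0.22 for the root markers).

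Over all 2556 pairs of chloroplast loci the median correlation across the 12 arrays was r = 0.48, and 47.2% of pairs reached 0.5. Over all pairs of probe sets the median was -0.00 and 7.70% reached 0.5. With the group means taken out the median was 0.49, and with group and age taken out it was 0.57. The mitochondrial probe sets had medians of 0.09, 0.10 and 0.12 on the same 3 kinds of value, and the nuclear photosynthesis genes 0.50, 0.59 and 0.69. The first principal component of the chloroplast values held 57.5% of their variance, the second 15.1% and the third 11.3%. The points of each correlation are the same 12 arrays, so these values describe the arrays and carry no test.

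Loci differed in how far they followed the common movement. The correlation of a locus with the mean of the other 71 exceeded 0.5 for 58 of the 72 and was highest for ATCG00430 and ATCG00520, both at 0.96. ATCG00520 had 7.85, 7.24 and 9.09 in CCA1-34 late seedlings of 5, 6 and 7 days and 7.07, 8.12 and 6.97 in CCA1-34 early. It had 8.61, 6.88 and 9.35 in Col late and 7.92, 7.45 and 8.44 in Col early, the same order of arrays within each group as the mean over all loci in 3 of the 4 groups. Only 2 loci had a negative correlation with the mean of the others. ATCG01010, the dimmest, had -0.22, and ATCG00700 had -0.60. ATCG00700 was negatively correlated with 66 of the other 71 loci, with a median of -0.41, and was lowest where most others were highest. Its signal was 5.48, 5.47 and 5.72 in CCA1-34 late, 6.08, 5.88 and 6.21 in CCA1-34 early, 5.70, 5.64 and 5.21 in Col late and 5.86, 5.65 and 5.62 in Col early.

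Loci with neighbouring identifiers moved most alike. The 71 pairs of loci measured next to each other had a median r of 0.71, and 28.2% of them reached 0.9. Pairs with 1 measured locus between them had a median of 0.56, pairs 3 to 5 places apart 0.54, pairs 6 to 10 places apart 0.45 and the 1891 pairs farther apart 0.47, of which 2.17% reached 0.9. For 30 of the 72 loci the most similar of the other 71 was a direct neighbour, whereas 2.78% of all pairs are neighbours. The order of loci was not used to choose them. On deviations from group means neighbours stayed the most alike, at 0.75 against 0.48 for pairs more than 10 places apart. With group and age taken out these were 0.79 and 0.58, and pairs 6 to 10 places apart had 0.51.

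Neighbours with r of at least 0.9 formed 16 runs, 14 of 2 loci and 2 of 4 loci. Of all neighbouring pairs, ATCG00470 and ATCG00480 had the highest correlation (r = 0.986), followed by ATCG00570 and ATCG00580 (r = 0.981), of a run of 4, and by ATCG00270 and ATCG00280 (r = 0.980). One run of 4 went from ATCG00550 to ATCG00580, with a median r of 0.93, and the other from ATCG00750 to ATCG00780, with a median of 0.95. The runs had different profiles. ATCG00750, of the second run, had 9.05, 7.97 and 10.52 in CCA1-34 late, 8.24, 9.34 and 8.26 in CCA1-34 early, 9.10, 7.71 and 10.84 in Col late and 9.91, 8.13 and 8.76 in Col early. It was thus highest on the 7-day late arrays of both lines, while its 5-day Col early value exceeded the 7-day one. The first run was higher at 7 than at 5 days in every group, as described with the ages.

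**Figure D3:**
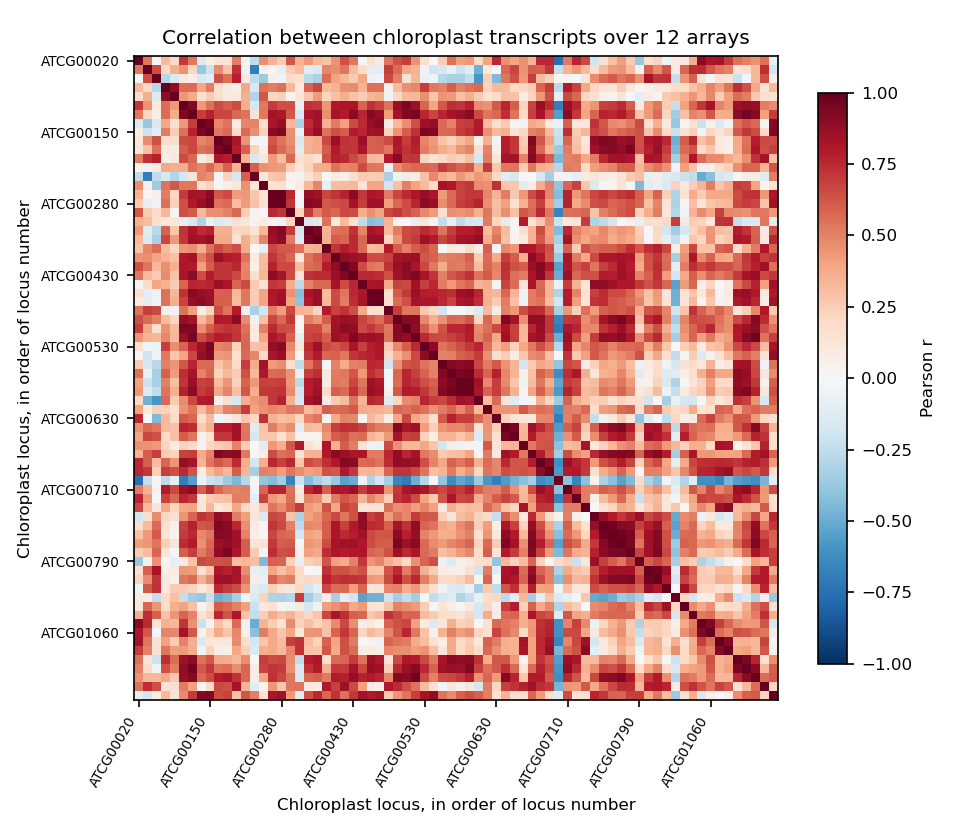
Pearson correlation over the 12 arrays between every 2 of the 72 chloroplast probe sets, ordered by locus number on both axes, from -1 (blue) to 1 (red). Dark red blocks along the diagonal are runs of neighbouring loci such as ATCG00550 to ATCG00580 and ATCG00750 to ATCG00780; the blue line is ATCG00700, negative with 66 of 71 others.

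CCA1-34 late was compared with CCA1-34 early, and Col late with Col early, to ask how the time of day within the same dark treatment altered transcripts. No chloroplast probe set passed the threshold (adjusted p of 0.05 over all probe sets, limma) in either line. In CCA1-34, 56 of the 72 were higher late and 16 lower, with a median difference of 0.26 log2 units, against -0.00 over all probe sets. At an unadjusted p of 0.05, 0 were higher and 1 lower, where 1.68% of all probe sets passed in either direction and 0.0% passed after adjustment. Groups did not overlap for 4 higher loci, against 3.02% of all probe sets, and for 1 lower locus, against 3.94%. In Col, 48 were higher late and 24 lower, with a median of 0.08 against -0.01 over all probe sets. Here 0 passed an unadjusted p of 0.05 in either direction, against 5.41% of all probe sets, and 0.0044% of all passed after adjustment. In Col, 0 loci were without overlap, against 3.77% of all probe sets higher and 5.14% lower. Leaving out 1 array at a time, the median ran from 0.13 to 0.40 in CCA1-34, and from -0.14 to 0.38 in Col, where it was below 0 without the 5-day or 7-day late array or the 5-day early array. The standard error of such a difference had a median of 0.395 over the chloroplast probe sets and 0.160 over all, so a difference had to be large to stand out from the arrays' spread.

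Loci are named by t, the difference divided by its moderated standard error. ATCG00700 had the lowest t for CCA1-34 late against early. Its late values of 5.48 to 5.72 lay below its early values of 5.88 to 6.21, a difference of -0.50 (SE 0.148, limma adjusted p = 1.00). In Col the ranges overlapped and the difference was -0.19 (SE 0.148, adjusted p = 0.92). ATCG00300 had the highest t in CCA1-34, with 9.41, 9.21 and 9.39 late and 8.52, 9.17 and 8.45 early, a difference of 0.63 (SE 0.286, adjusted p = 1.00). The remaining loci without overlap, named after their values were seen, were ATCG00080, ATCG00560 and ATCG00720, all higher late.

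Whether the change from early to late differed between the lines was tested with an interaction term. No chloroplast probe set passed after adjustment, as in 0.0% of all probe sets, and 1 passed an unadjusted p of 0.05, against 2.04% of all. The median was 0.18 log2 units, with 48 positive and 24 negative, against 0.01 over all probe sets. That median was -0.23 without the 6-day Col late array and -0.04 without the 7-day CCA1-34 late array. The 1 locus was ATCG00300, whose late-minus-early difference was 0.63 in CCA1-34 and -0.58 in Col, an interaction of 1.21 (SE 0.404, limma adjusted p = 1.00).

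CCA1-34 and Col were next compared at the same time of day, which sets the overexpressor against the wild type. At the early time 61 of the 72 loci were lower in CCA1-34 and 11 higher, with a median of -0.28 log2 units, against -0.01 over all probe sets. None passed after adjustment, as against 0.0044% of all probe sets, while 1 higher and 2 lower passed an unadjusted p of 0.05, against 3.57% of all in either direction. Groups did not overlap for 1 higher locus (3.27% of all probe sets) and 2 lower ones (4.49% of all). At the late time 51 were lower in CCA1-34 and 21 higher, with a median of -0.12 against -0.01. None passed after adjustment (0.00879% of all did), 1 lower locus passed an unadjusted p of 0.05 (3.79% of all in either direction), and groups did not overlap for 0 higher (5.45% of all) and 2 lower loci (4.78% of all). Leaving out 1 array at a time, the early median ran from -0.47 to -0.14, and the late one from -0.44 to 0.20, with 0.20 without the 7-day Col late array and 0.08 without the 6-day CCA1-34 late array. These comparisons share arrays with the comparisons of times. The loci are not independent of each other, so the 61 of 72 are not 61 separate observations, and the chloroplast mean of the CCA1-34 early arrays ran from -0.55 to 0.09.

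The lowest t at the early time was that of ATCG00300. Its CCA1-34 early values of 8.52, 9.17 and 8.45 lay below its Col early values of 9.96, 10.10 and 9.90, a difference of -1.28 (SE 0.286, limma adjusted p = 1.00). ATCG00700 was the 1 locus without overlap that was higher in CCA1-34, at 0.35 (SE 0.148, adjusted p = 1.00). The other lower locus without overlap, ATCG00600, had 3.99, 3.66 and 3.98 in CCA1-34 early and 4.18, 4.24 and 4.93 in Col early. At the late time ATCG00730 had the lowest t, with 4.55, 4.82 and 4.58 in CCA1-34 late and 5.64, 4.86 and 5.27 in Col late, a difference of -0.61 (SE 0.234, adjusted p = 1.00). ATCG00210 was the other locus without overlap, at 5.05 to 5.23 in CCA1-34 late and 5.26 to 5.62 in Col late.

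**Figure D4:**
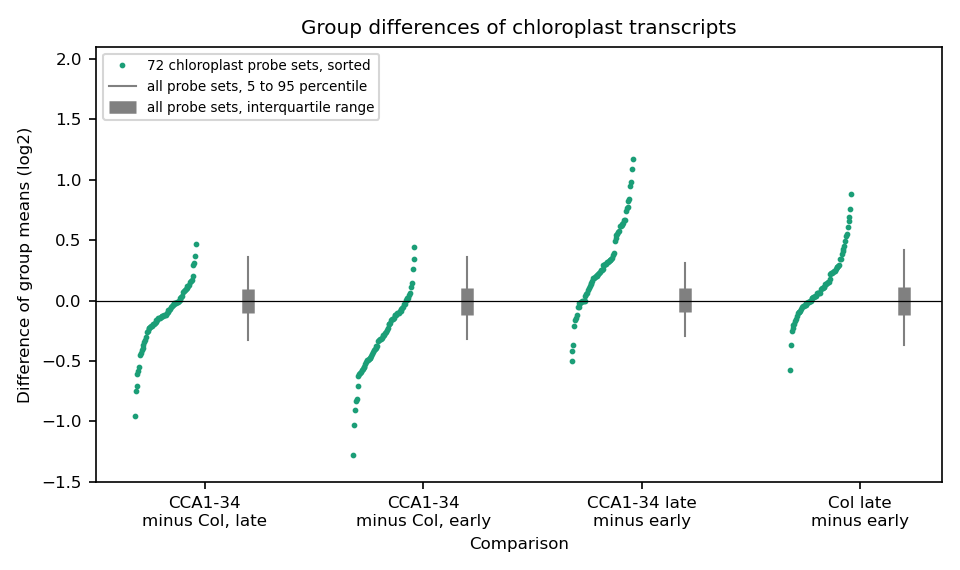
Differences of group means (log2 units) for the 72 chloroplast probe sets, sorted from low to high within each of 4 comparisons, beside the interquartile range (thick) and the 5 to 95 percentile range (thin) of all 22746 probe sets. The chloroplast medians are -0.12 and -0.28 for CCA1-34 minus Col (late and early) and 0.26 and 0.08 for late minus early (CCA1-34 and Col), and no chloroplast probe set passed the threshold in any of them.

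A linear slope on age in days, fitted beside the 4 group means, gave the only chloroplast locus past the threshold. Each age is also 1 sampling day and 1 length of time in the light pulses, so these cannot be told apart. The fit takes the arrays of a day as independent. Of the 72 slopes 49 were positive and 23 negative, with a median of 0.10 log2 units per day against 0.00 over all probe sets, and of -0.05 without the 7-day Col late array. After adjustment 1 locus passed, with a positive slope, where 0.787% of all probe sets passed, 0.541% of all with a positive slope. At an unadjusted p of 0.05, 12 positive and 3 negative slopes passed, against 9.21% and 7.24% of all probe sets. The locus that passed was ATCG00570. Its signals at 5, 6 and 7 days were 9.76, 10.27 and 11.14 in CCA1-34 late, 9.27, 10.09 and 10.17 in CCA1-34 early, 10.40, 9.94 and 11.26 in Col late and 9.41, 10.28 and 11.05 in Col early. It was higher at 7 than at 5 days in all 4 groups, although the 7-day CCA1-34 early value lay below the 5-day Col late value. Its slope was 0.60 log2 units per day (SE 0.110, limma adjusted p = 0.0449). The call was lost without any 1 of the arrays other than the 5-day and 6-day Col late ones (adjusted p of 0.0231 to 0.158 over all 12 omissions), and with the other settings given in the closing section.

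The 5 highest t values for age all belonged to the 5 consecutive measured loci from ATCG00550 to ATCG00590, a grouping noticed after the values were seen. Their slopes ran from 0.41 to 0.60 log2 units per day. ATCG00580 was second, at 0.57 (SE 0.144, limma adjusted p = 0.0927). The mean signal of the 5 at 5, 6 and 7 days was 8.79, 9.04 and 9.72 in CCA1-34 late, 8.15, 8.89 and 9.04 in CCA1-34 early, 9.30, 8.69 and 9.89 in Col late and 8.18, 9.03 and 9.82 in Col early. In each group the 7-day array was the highest, and in Col late the 6-day array was the lowest, as it was for the chloroplast mean. The 5 loci shared most of their variation, with a median r of 0.91 between them, so they are not 5 separate observations of an age difference. On the 4 arrays of each age, ATCG00590 and ATCG01240 were the 2 loci whose 7-day values all lay above their 5-day values, against 4.66% of all probe sets.

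Negative slopes were fewer. ATCG00040 had the lowest t, with a slope of -0.27 log2 units per day (SE 0.107, limma adjusted p = 0.25). It was the 1 locus whose 7-day values all lay below its 5-day values, against 4.08% of all probe sets, with 9.32 to 10.42 at 7 days and 10.53 to 10.76 at 5 days. ATCG00660 had a slope of -0.30 (SE 0.121, adjusted p = 0.25). Overall 19 of the 72 were higher at 7 than at 5 days in all 4 groups, against 13.1% of all probe sets, and 3 were lower in all 4, against 11.9% of all. The groups were unlike in this: the median 7-day minus 5-day difference over the 72 loci was 0.40 in CCA1-34 late, -0.16 in CCA1-34 early, 0.35 in Col late and 0.19 in Col early. The difference of the age slope between CCA1-34 and Col had a median of -0.11 over the 72 loci, with 24 positive and 48 negative. No chloroplast probe set passed it after adjustment (0.0% of all did), and 1 positive and 1 negative passed an unadjusted p of 0.05 (2.32% of all). That median was 0.13 without the 7-day Col late array and 0.10 without the 7-day CCA1-34 early array.

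**Figure D5:**
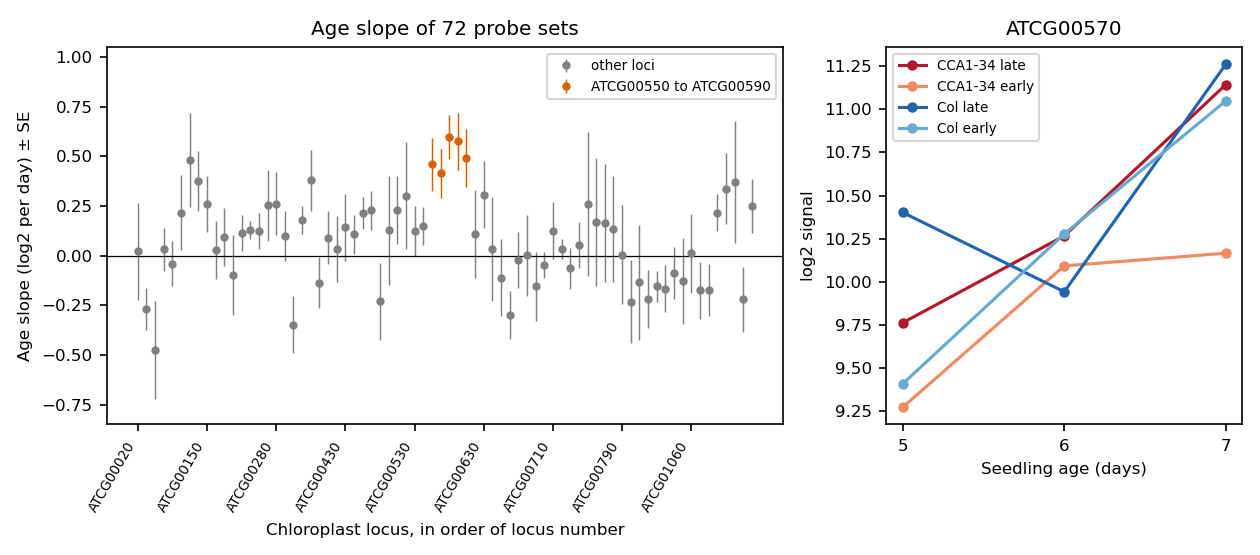
Left, the age slope of each of the 72 chloroplast probe sets in order of locus number, in log2 units per day, with its standard error; the 5 loci from ATCG00550 to ATCG00590, at 0.41 to 0.60, are marked. Right, the log2 signal of ATCG00570 on each array against age, with 1 line per group; the 7-day value is above the 5-day value in all 4.

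The root cell markers had lower signals at later ages. All 14 had negative slopes, with a median of -0.46 log2 units per day, 11 of them at an unadjusted p of 0.05, against 7.24% of all probe sets with a negative slope at that p. One of them, CASP5, a protein of the Casparian strip membrane domain in the root endodermis, fell by 1.24 log2 units per day (limma adjusted p = 0.0432). Of all 22746 probe sets, 56 passed with a negative slope. Its signal was 2.27 on the 7-day Col early array and 4.17 to 7.22 on the others. Summed as a mean level, the 14 markers ran from 4.66 to 5.95 over the arrays, and the part of root RNA in the age slopes of chloroplast transcripts was not tested. Of the 29 nuclear photosynthesis genes 14 had positive slopes, with a median of -0.01, and 1 had an unadjusted limma p under 0.05, a negative slope, and 0 an adjusted one.

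The nuclear genes that read and maintain chloroplast RNA were followed on the same arrays. Of the 6 sigma factors, which direct the plastid polymerase to its promoters, none passed the threshold in any of the 7 limma fits. Only SIG3 had an unadjusted p under 0.05, for a positive age slope, against 9.21% of all probe sets. All 6 were lower in CCA1-34 late than in Col late, where 48.5% of all probe sets were higher, with a median of -0.21 log2 units. At the early time 5 of 6 were higher in CCA1-34 than in Col, against 48.0% of all, with a median of 0.16. The standard error of such a difference had a median of 0.36 over the 6. Their mean deviation ran from -0.53 to 0.62 within Col late. It was highest on the 6-day CCA1-34 early array, at 0.76, where the chloroplast mean was 0.09. SIG5, a sigma factor that responds to light and stress, had a late minus early difference of -0.81 in CCA1-34 and -1.02 in Col, each with a standard error of 1.04. Its early values at 5, 6 and 7 days were 2.27, 6.48 and 2.84 in CCA1-34 and 2.79, 3.93 and 6.12 in Col. Its late values ran from 2.70 to 3.94 over both lines. The 3 polymerases of phage type all had positive age slopes, as did 51.3% of all probe sets. At an unadjusted limma p of 0.05, 2 of the 3 passed with a positive slope, against 9.21% of all probe sets, and 0 passed after adjustment. The slope was 0.37 per day for SCA3, the plastid enzyme, and 0.46 for MGP3, the mitochondrial one (limma adjusted p of 0.147 and 0.0808). All 3 polymerases had mean signals below the median probe set. Of 13 measured genes for proteins that associate with the plastid-encoded polymerase, 10 were higher late than early in CCA1-34 and 5 in Col. Of all probe sets 49.9% and 47.4% were. None of the 13 passed the threshold in any of the 7 limma fits. An unadjusted p under 0.05 was reached by 1, for a negative age slope, against 7.24% of all probe sets. Of 10 measured factors of plastid RNA stability and processing none passed an adjusted or an unadjusted p of 0.05 in those fits. Among them 8 were higher late in CCA1-34 and 9 in Col, against 49.9% and 47.4% of all probe sets, with medians of 0.06 and 0.27.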

How the data were processed

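The authors deposited log2 signals from RMA (per the file headers and, likewise, the submitters' processing notes). Which version and settings they used is not given in the sources used here. The method usually equalises the arrays' distributions, which reduces a shift shared by most transcripts. The deposited values run from 1.22 to 12.99, and the table of the series matched the single-array files (0 cells differed). Precision is limited by the 12 arrays.

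Groups came from the sample titles and ages from the descriptions. All 22746 probe sets other than 64 array controls were fitted in R 4.3.3 with limma 3.58.1 (functions lmFit, contrasts.fit, eBayes without trend, two-sided, no filter on dim probe sets) with 4 group means, and chloroplast rows were read from that fit. The 7 fits are 4 group differences, their interaction, an age slope with group as a factor, and the difference of that slope between lines. Benjamini-Hochberg adjustment ran over all probe sets at a threshold of 0.05. The code was tested on simulated data. Correlations were computed with numpy 2.4.6 and carry no test.

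Replicate numbers mark the day of sampling, per the labels, so they pair arrays across groups. Arrays of the same day had a median correlation of deviations from group means of 0.18 (-0.32 to 0.51) over all probe sets, and arrays of different days -0.07 (-0.52 to 0.49). Deviations within a group cancel each other out, so the values for same and different days are not independent.

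The chloroplast loci and the nuclear lists were chosen with earlier results of these data known. The written rule named loci by gene class and transcription unit, which could not be applied because no source used here pairs ATCG identifiers with symbols. Instead, up to 2 loci with the highest and up to 2 with the lowest moderated t per fit were named, with the extremes of level, of range and of correlation. Others were named after their values were seen. No sequences and no coordinates are given.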

Additional observations from a re-analysis of the deposited data

How the results depend on the processing

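The alternatives were day as a replicate block, each array left out in turn, dim probe sets left out, eBayes with trend and robust, 2 other scalings on nuclear probe sets, the 8 probe sets of several ATCG loci added, and age as a factor. With the replicate block, 0 chloroplast loci passed in each of the 5 group contrasts, as without it, and no call changed. The number of loci past the age threshold, 1, was 0 to 2 with 1 array left out. It was 2 without the 6-day Col late array, where ATCG00580 also passed (adjusted p = 0.0255), and 1 without the 5-day Col late array. It was 0 with arrays centred on the nuclear median, with quantiles of nuclear probe sets, with age as a factor and, chosen after seeing the data, without the 7-day Col early and 6-day CCA1-34 early arrays together. There the adjusted p of ATCG00570 was 0.0556, 0.0596, 0.0598 and 0.0741, with slopes of 0.55 to 0.61. With 1 array left out, the median over the loci ran from -0.0455 to 0.18 for the age slope, from -0.23 to 0.38 for the interaction, and from -0.29 to 0.13 for the difference of age slopes between lines. The cause was not tested. The median pairwise correlation was 0.40 to 0.52 with 1 array left out and 0.44 as Spearman rho.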
